A study of Capsicum annuum with 78 samples.

Results

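A group of 12 genes, of 35884 in the count table, lay above the mock control in cold-treated pepper leaves at 6, 12 and 24 h and was close to the mock again at 72 h. They were chosen by a rule on their own expression values. With d as the difference between stress and mock at the same time in mean log2(CPM + 1), where CPM is the gene's count divided by the library's total and multiplied by 1000000, d in cold was at least 1 at 6, 12 and 24 h and within 0.5 of 0 at 72 h. The absolute d in heat, averaged over the 5 time points, was under 0.75. The mean mock CPM was 2 to 1000, and the 6 mock groups differed by less than 1.5 on the log2 scale. The rule also left out the identifier scaffold213.1 and allowed up to 150 genes, a limit that was not reached.

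The leaves came from Capsicum annuum plants of the cultivar CM334, 6 weeks old, in 78 libraries of 26 groups with 3 biological replicates each, and each replicate pooled leaves of 4 plants. Mock plants, kept at 24 °C, were harvested at the start (0 h) and at 5 later times, 3 h, 6 h, 12 h, 24 h and 72 h, and stressed plants at the 5 later times of cold (10 °C), heat (40 °C), 400 mM mannitol (osmotic stress) or 400 mM NaCl (salinity). The reference for each stress was the mock harvested after the same number of hours. Total counts per library lay between 4310398 and 7667094, and the nearest library by expression was a replicate of the same group for all but 2, the third replicates of the 6-h and 12-h mannitol groups, which were nearest to NaCl of the same time.

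Pepper is of tropical origin and is injured by temperatures well above freezing. In Arabidopsis, cooling of leaves brings calcium signals and a quick rise of transcription factors such as the CBF proteins, which turn on protective genes over the following hours. Many plant genes also follow the circadian clock, so a leaf at each time point has to be set against an untreated leaf of the same hour. The identifiers of the count table matched none of the 48341 genes of the RefSeq table at hand, so the 12 genes are given by their identifiers only, without a function, and the tissue label was not checked against marker genes here. In bulk leaves, more cells that express a gene and more transcript per cell cannot be told apart.

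On the scale of the rule, which uses library totals, most genes that met the conditions on cold at the earlier times were above the mock at 72 h. Of the 13390 genes that met the conditions on the mock, 130 reached d of 1 in cold at 6, 12 and 24 h. At 72 h these 130 genes had a median d of 1.39, between -0.44 and 4.46, and 107 of them were at 0.5 or above, none at -0.5 or below. The remaining 23 came within 0.5 of the mock, and the condition on heat kept 12 of them. All 12 were on the upper side of the mock at 72 h on this scale, with d between 0.233 for scaffold625.88 and 0.476 for scaffold1089.11. The genes just inside that limit were scaffold1089.11 with 0.476, scaffold411.90 with 0.475 and scaffold624.15 with 0.433, and those just outside were scaffold322.35 with 0.505, scaffold404.16 with 0.516 and scaffold143.41 with 0.728. At 6 h, scaffold919.49 (1.07), scaffold1089.11 (1.25) and scaffold497.2 (1.61) were nearest to the limit of 1, and scaffold630.52 (0.773), scaffold2441.1 (0.743) and scaffold1312.7 (0.714) failed on that value alone. At 12 h the nearest inside were scaffold497.2 (1.27), scaffold919.49 (1.39) and scaffold1273.27 (1.43), and outside scaffold551.36 (0.94), scaffold1273.29 (0.352) and scaffold303.23 (0.236). At 24 h the nearest inside were scaffold1273.27 (1.08), scaffold411.90 (1.15) and scaffold108.37 (1.2), and outside scaffold504.47 (0.994), scaffold375.2 (0.944) and scaffold169.8 (0.928). For heat, scaffold162.3 (0.72), scaffold919.49 (0.719) and scaffold572.19 (0.702) lay just inside 0.75, and scaffold732.28 (0.754), scaffold1139.19 (0.763) and scaffold424.29 (0.863) just outside.

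The scaling of libraries bears on the group. The rule divides by library totals, whereas TMM factors set the bulk of genes level. Values from library totals lay above those from TMM by 0.45 at 72 h, and differed from them by -0.31 at 12 h, on the log2 scale of cold against mock. The d of the 130 genes at 72 h carries this shift as well. Their counts at 0.5 or above and at -0.5 or below hold for library totals only and were not repeated with TMM. After TMM scaling the 12 genes centred on the mock at 72 h, with log2 fold changes between -0.20 for scaffold625.88 and 0.05 for scaffold1089.11 and a median of -0.06. The same rule on TMM-scaled CPM found 17 genes, 9 of them among the 12. The genes that dropped out were scaffold162.3, scaffold411.90 and scaffold1273.27. All levels and log2 fold changes below are TMM-scaled unless stated, and those in cold from 6 to 72 h and in heat are a description without a test, because they chose the genes.

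In 7 of the 12 genes the mean of the cold leaves was highest at 12 h. Peak times here and below rank group means and were not tested. In scaffold5.38, scaffold625.88 and scaffold1273.27 the cold libraries at 12 h overlapped with those at 6 h, and in scaffold5.38 also with those at 24 h. The gene with the largest d at 12 h, scaffold293.19, was weakly expressed in the mock, where its group means lay between 3.36 and 5.93 CPM. In cold its 6-h libraries had 20.5, 17 and 19.3 CPM, the 12-h libraries 63.9, 82 and 56.7, the 24-h libraries 22.3, 17.1 and 14.4 and the 72-h libraries 4.43, 5.62 and 5.47. It thus had a spike at 12 h, where the mean was 11.4 times that of the mock, on a lower plateau of 3.17 to 4.08 times at 3, 6 and 24 h. By contrast, scaffold572.19 had a broad peak, with 143, 147 and 164 CPM in the 6-h libraries, 224, 268 and 233 in the 12-h libraries and 176, 169.6 and 189 in the 24-h libraries, against 33.3, 31.9 and 30.8 in the mock at 12 h. At 72 h it had 41.1, 52.6 and 53.2 CPM in cold and 52, 62.7 and 49.7 in the mock, so the libraries overlapped. The gene scaffold625.88 was at 55.9, 62.4 and 68.6 CPM in cold at 12 h, when the mock held 5.38, 6.21 and 5.78, its lowest level. Its ratio of 10.8 at 12 h therefore came with a mock that was 3.07 times lower than its own level at 72 h (18.4, 18.3 and 16.6).

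The other 4 genes with the peak at 12 h differed in level. The most abundant were scaffold1273.27 and scaffold919.49, which reached 174 ± 21.4 and 141 ± 7.8 CPM (SD, n = 3) in cold, against 51.6 ± 8.39 and 42.7 ± 4.44 in the mock. The gene scaffold5.38 had 24.2, 26.2 and 18.7 CPM in cold and 3.2, 3.76 and 3.75 in the mock. For scaffold108.37 these values were 16.9, 15.7 and 14.1 and 3.05, 2.45 and 3.61, which rest on 100, 81 and 60 counts in cold and 21, 15 and 25 in the mock. At 12 h no cold library of these 4 genes was as low as any mock library, but d at that time chose the genes.

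In 4 genes the mean of the cold leaves was highest at 24 h, though in scaffold1089.11 and scaffold497.2 the libraries at 24 h and 12 h overlapped. The most abundant of the 12, scaffold624.15, was higher in cold at each harvest of the first day than at the one before, with 164, 148 and 165 CPM in the 3-h libraries, 240.4, 207 and 254 in the 6-h, 323, 362 and 276 in the 12-h and 401, 412 and 446 in the 24-h libraries. At 72 h it was back at 129, 127 and 141, next to 132, 140.0 and 129 in the mock. The level of scaffold411.90 was instead flat at 3, 6 and 12 h, with means of 166, 170.2 and 167 CPM, while the mock held 71.2 ± 4.29 at 3 h and 43.9 ± 0.732 at 6 h (SD, n = 3). Its d at 6 h of 1.83 against 1.15 at 3 h thus came with a lower mock and about the same level in cold. The genes scaffold1089.11 and scaffold497.2 had 35.6, 37.7 and 35 CPM and 48.8, 48.5 and 45.6 CPM in cold at 24 h, against 18.7, 15.6 and 14.5 and 21.8, 23.5 and 19.4 in the mock.

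The last gene, scaffold162.3, had the lowest level of the 12 in the mock, a mean of 2.08 CPM with library totals. It was the only one whose cold mean was highest at 3 h, and its 3-h and 6-h cold libraries overlapped. Its 3-h cold libraries held 73, 59 and 79 counts, the 6-h libraries 68, 53 and 84, the 12-h libraries 25, 17 and 22 and the 24-h libraries 70, 65 and 51. The mock had its lowest mean at 12 h as well, though its 6-h and 12-h levels overlapped and were not tested against each other. Its 6-h libraries held 8, 5 and 9 counts, the 12-h libraries 7, 4 and 2 and the 24-h libraries 19, 19 and 20. From 3 h to 24 h every cold library of this gene was above every mock library of the same time. Of these times only cold at 3 h was not used by the rule.

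**Figure D1:**
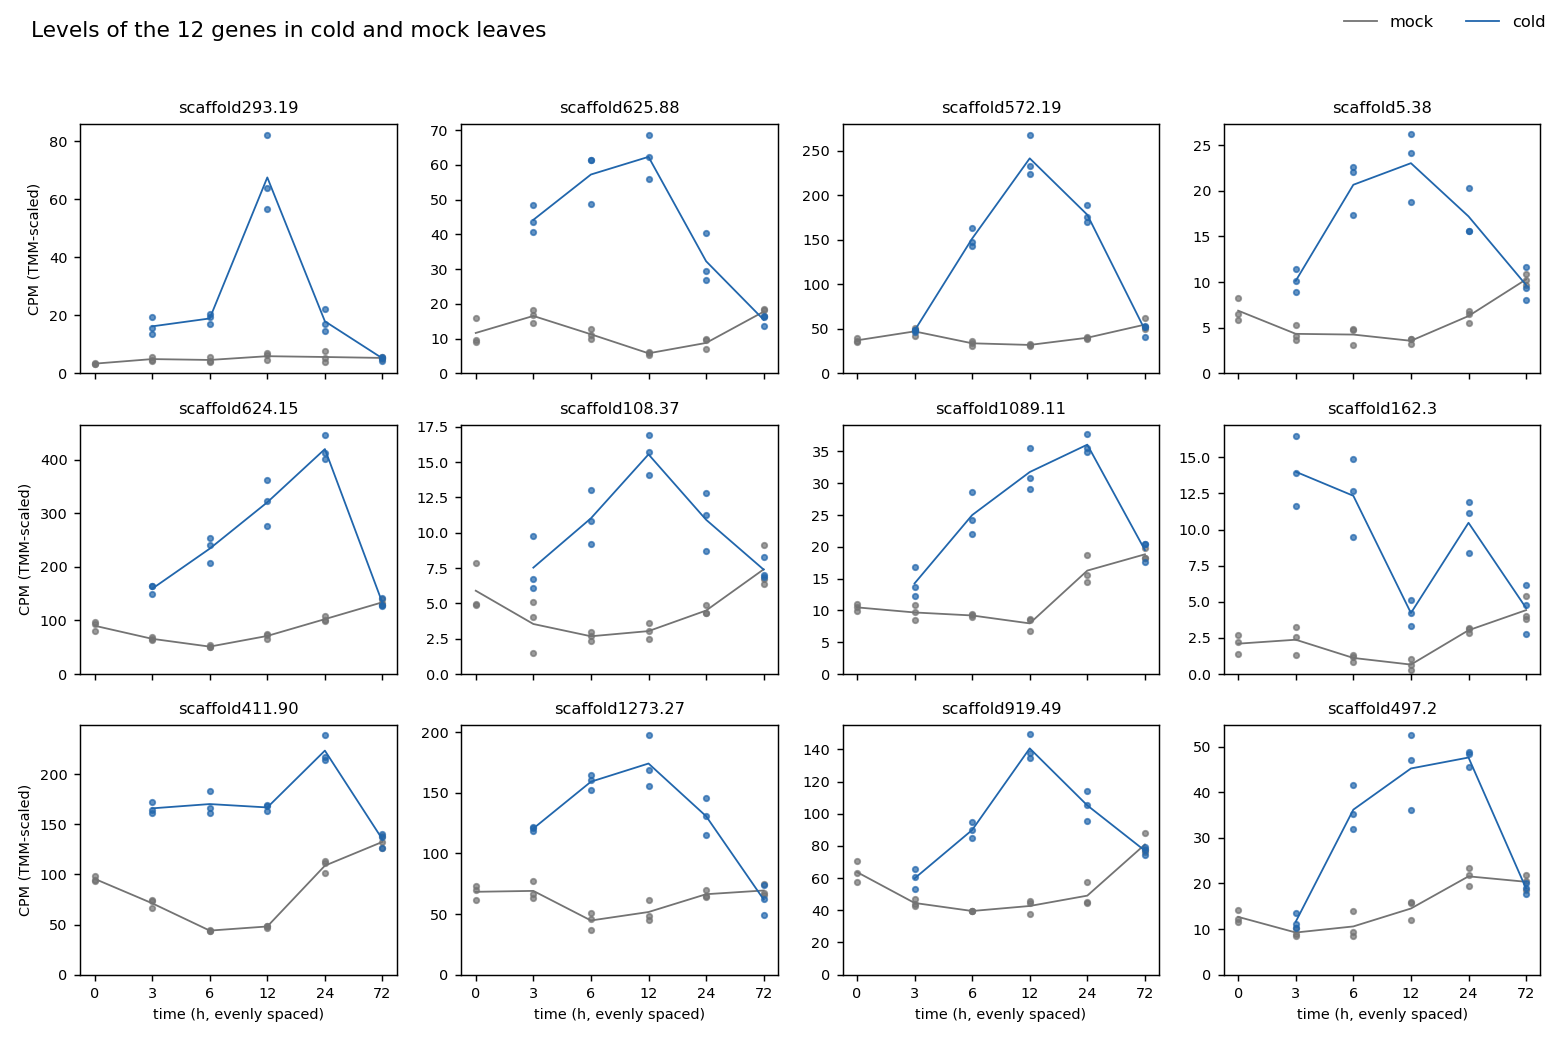
Levels of the 12 genes in cold (blue) and mock (grey) leaves, as TMM-scaled CPM on a linear axis from 0, against hours of treatment at even spacing; points are libraries and lines join group means of 3. Cold lies above the mock from 6 h to 24 h and meets it at 72 h, and the mean was highest at 12 h in 7 genes, at 24 h in 4 genes and in scaffold162.3 at 3 h.

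The approach of cold and mock between 24 h and 72 h had a part from each side. On the log2(CPM + 1) scale the cold leaves were lower at 72 h than at 24 h in all 12 genes, by between 0.44 for scaffold919.49 and 1.85 for scaffold572.19. The mock was higher at 72 h than at 24 h in 10 of the 12, by up to 0.95 for scaffold625.88, and lower in scaffold293.19 (-0.03) and scaffold497.2 (-0.08). In scaffold919.49 and scaffold108.37 the change in the mock (0.72 and 0.60) was larger than that in cold (0.44 and 0.50). The same held narrowly for scaffold625.88 with library totals (0.822 in the mock and 0.812 in cold). In scaffold293.19, scaffold497.2 and scaffold1273.27, whose mock changed by less than 0.1, the approach was almost wholly a lower level in cold. With library totals in place of TMM the mock of scaffold1273.27 was also lower at 72 h (-0.07), and the cold leaves were still lower at 72 h in all 12 genes, by between 0.24 and 1.65. The mock was at its highest at 72 h in 10 of the 12 genes, and in 24.1% of the 19588 genes tested. With library totals these values were 9 of 12 and 13.0%. Since the rule used the mock levels, these counts describe the selection.

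**Figure D2:**
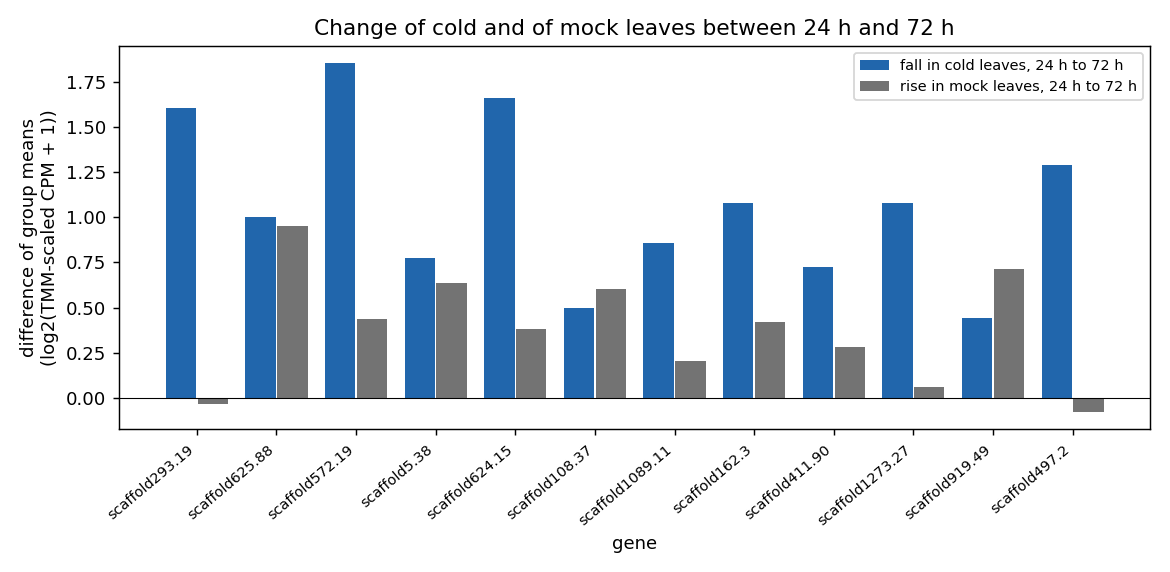
Change between 24 h and 72 h for each of the 12 genes, as the difference of group means (n = 3 libraries each) in log2(TMM-scaled CPM + 1); blue bars are the fall in cold leaves and grey bars the rise in mock leaves. The grey bar is longer than the blue in scaffold108.37 and scaffold919.49, and slightly below 0 in scaffold293.19 and scaffold497.2.

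Cold at 3 h, the first harvest in cold, was not used by the rule and shows which of these genes already differed from the mock then. The genes were chosen by their cold values at the later harvests, and the other genes raised in cold were not set beside them here. Of the 12 genes, 7 were differentially expressed genes (DEGs) and higher at 3 h by edgeR's quasi-likelihood test, where a DEG, here also a call, needs a log2 fold change beyond 1 in size besides a Benjamini-Hochberg adjusted p below 0.05, and none was lower. Of all genes tested, 3.09% were higher and 5.23% lower in this comparison. By the adjusted p-value alone 10 of the 12 were higher, beside 11.4% of all genes. The median log2 fold change of the 12 genes was 1.13, against -0.03 over all genes tested. The libraries of cold were all above those of the mock in 10 of the 12 genes, and in 18.7% of all genes tested. The mock libraries at 3 h are not independent of the rule, since they enter the limits on the mock and on heat.

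The largest change at 3 h was that of scaffold162.3, with 13.9, 11.6 and 16.5 CPM in cold and 2.54, 3.29 and 1.29 in the mock, a log2 fold change of 2.55 (standard error 0.29, adjusted p = 1.02e-10). Next came scaffold293.19, with 15.6, 13.4 and 19.6 CPM against 4.77, 5.61 and 4.43, a log2 fold change of 1.71 (standard error 0.22, adjusted p = 3.98e-09). The values of scaffold625.88 were 43.6, 40.6 and 48.3 against 16.9, 14.5 and 18.3 CPM. Its log2 fold change was 1.41 (standard error 0.15, adjusted p = 2.04e-11), and those of scaffold624.15, scaffold411.90 and scaffold5.38 were 1.28, 1.22 and 1.21 (adjusted p at most 1.01e-05). The call of scaffold108.37 was the weakest of the 7, at 1.06 (standard error 0.25, adjusted p = 7.73e-04). Its libraries held 6.1, 6.7 and 9.79 CPM in cold and 5.09, 4.06 and 1.48 in the mock. Replicate 3 was thus the highest library of cold and the lowest of the mock. Without replicate 3 of every group its log2 fold change was 0.51 and not called.

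Among the 5 genes that were not called, scaffold1273.27, scaffold1089.11 and scaffold919.49 were above the mock by less than the limit, with log2 fold changes of 0.80, 0.57 and 0.42 and adjusted p of 4.31e-07, 0.00274 and 0.0014. For scaffold497.2 the log2 fold change was 0.32 (standard error 0.19, adjusted p = 0.224). The gene scaffold572.19 had 48.8, 49.1 and 46.3 CPM in cold and 42.3, 48.5 and 50.8 in the mock, which overlap. Its log2 fold change was 0.03, with a normal 95% interval of -0.20 to 0.25, which leaves out a change of the limit of 1 in either direction. At 6 h the cold mean of this gene was 4.48 times that of the mock.

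Set against the other stresses at 3 h, without the mock, 4 of the 12 genes were higher in cold than in mannitol and the same number higher than in NaCl, and none was lower in cold past the limit. Over all genes tested, 3.01% were higher and 7.12% lower in cold than in mannitol, and 5.4% higher and 10.9% lower in cold than in NaCl. The 4 genes were scaffold162.3, scaffold293.19, scaffold624.15 and scaffold411.90 in both comparisons. The log2 fold change of scaffold162.3 was 2.93 (standard error 0.29, adjusted p = 1.73e-12) against mannitol and 3.33 (standard error 0.31, adjusted p = 6.7e-14) against NaCl, in edgeR's test. For scaffold411.90 these were 1.15 and 1.20, and for scaffold624.15 1.05 and 1.19. In the opposite direction, scaffold572.19, scaffold919.49 and scaffold497.2 were lower in cold than in mannitol, with log2 fold changes of -0.82, -0.65 and -0.67 (adjusted p = 1.99e-08, 5.69e-07 and 0.00205 in edgeR's test), short of the limit of 1. By the adjusted p-value alone 16.6% of all genes were lower in cold.

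**Figure D3:**
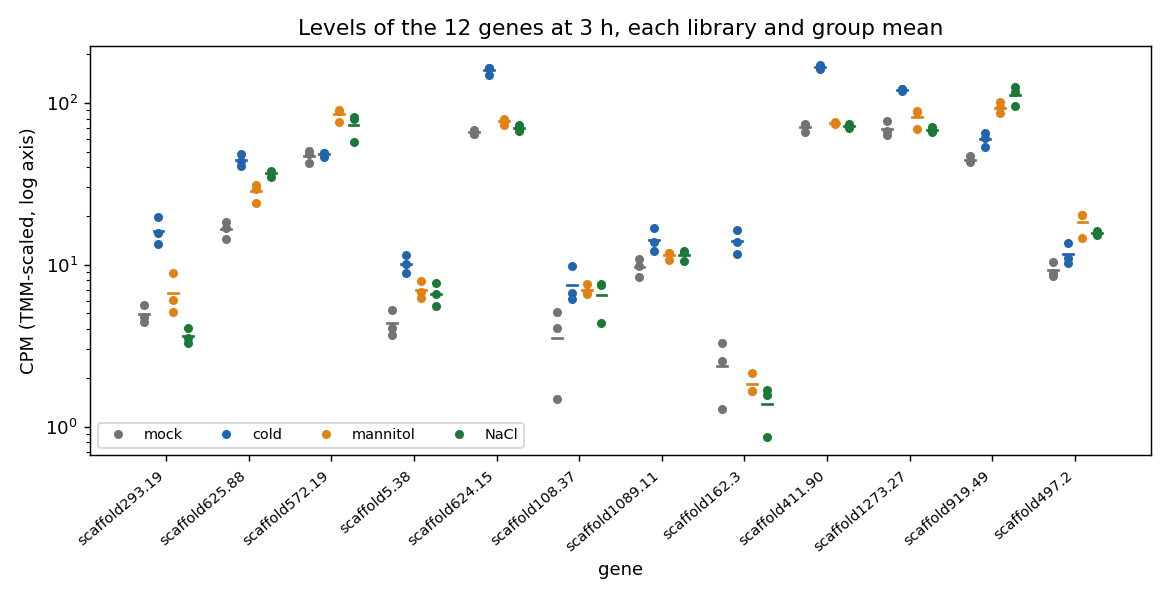
Levels of the 12 genes at 3 h in mock (grey), cold (blue), mannitol (orange) and NaCl (green) leaves, as TMM-scaled CPM on a log axis; points are libraries and bars are means of 3. The cold libraries stand above the other groups in scaffold162.3, scaffold293.19, scaffold411.90, scaffold624.15 and scaffold1273.27, and by less in scaffold1089.11, scaffold625.88 and scaffold5.38. They overlap with the other groups in scaffold108.37. In scaffold572.19, scaffold919.49 and scaffold497.2 mannitol and NaCl are above cold in the means. How many of all genes show such a separation was not counted.

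In mannitol and NaCl, which the rule did not use, few of the genes passed the limit on the fold change, and more of them passed the adjusted p-value alone. Over the 10 comparisons with the mock there were 11 calls of a higher level and 1 of a lower level among 120 values. These comparisons share the mock libraries with the rule and with each other. The times from 3 h to 72 h are taken in order here. In mannitol 1, 0, 1, 2 and 1 genes were called higher and none lower. Of all genes tested 1.7%, 1.09%, 3.42%, 7.02% and 6.59% were higher in mannitol at these times and 0.975%, 1.33%, 2.47%, 5.24% and 2.44% lower. In NaCl 2, 0, 3, 1 and 0 genes were called higher, beside 5.14%, 2.42%, 4.72%, 12.8% and 3.68% of all genes. The only lower call in NaCl was at 24 h, and the shares of all genes that were lower were 2.73%, 3.39%, 3.59%, 11.0% and 2.11%. By the adjusted p-value alone 6, 3, 7, 8 and 6 of the 12 genes were higher in mannitol, beside 5.79%, 6.79%, 12.0%, 21% and 16.9% of all genes. The only one lower by this criterion was at 72 h, and the shares of all genes were 5.47%, 8.21%, 14.3%, 19.6% and 16.1%. In NaCl 6, 2, 7, 6 and 1 were higher by this criterion, beside 14.7%, 15.9%, 17.1%, 29.8% and 11.9% of all genes, and 0, 2, 2, 4 and 1 lower, beside 13.4%, 15.0%, 16.7%, 25.3% and 12.8%. The log2 fold change was positive in 11, 10, 9, 11 and 7 of the 12 genes in mannitol, with medians of 0.55, 0.19, 0.44, 0.60 and 0.22, and in 9, 4, 9, 6 and 4 in NaCl, with medians of 0.42, -0.12, 0.39, 0.18 and -0.04. The medians over all genes lay between 0 (mannitol at 12 h) and 0.08 (NaCl at 24 h).

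The calls came mainly from 2 genes. The gene scaffold625.88 was called higher in 5 of the 10 comparisons. At 12 h it had 22.7, 18.4 and 16.2 CPM in mannitol and 20.7, 18.8 and 23 in NaCl, against 5.38, 6.21 and 5.78 in the mock. The log2 fold changes were 1.73 (standard error 0.18, adjusted p = 6.92e-12) and 1.84 (standard error 0.18, adjusted p = 4.31e-13) in edgeR's test. The other calls of this gene were in mannitol at 24 h (1.27), in NaCl at 24 h (1.44) and in NaCl at 3 h (1.15). From 3 h to 24 h its libraries in cold, mannitol and NaCl were all above those of the mock of the same time. Those in cold were the highest, and the cold values at 6, 12 and 24 h chose the gene. The gene scaffold919.49 was called in 3 comparisons, in mannitol at 3 h and in NaCl at 3 h and 12 h, with log2 fold changes of 1.07, 1.33 and 1.18. At 3 h its libraries held 101, 93.9 and 86 CPM in mannitol and 125, 96 and 116 in NaCl, all above the 60.6, 53.4 and 65.4 of cold and the 42.9, 43.7 and 47.1 of the mock. The call in mannitol was lost without replicate 1, at 0.96.

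Single calls went to 4 further genes. The gene scaffold108.37 was higher in mannitol at 24 h, with 12.1, 11.7 and 12.5 CPM against 4.3, 4.86 and 4.32 in the mock and a log2 fold change of 1.43 (standard error 0.22, adjusted p = 2.0e-07). In cold at that time it held 11.2, 8.74 and 12.8 CPM, about the level in mannitol. The gene scaffold497.2 was higher in mannitol at 72 h, with 47.1, 54.1 and 55.1 CPM against 18.6, 20.6 and 21.9, a log2 fold change of 1.35 (standard error 0.15, adjusted p = 9.11e-11). In NaCl at 72 h it held 39.5, 40.7 and 36.6 CPM, with a log2 fold change of 0.93 below the limit, while in cold it was then at 18.9 ± 1.15 (SD, n = 3). This gene was thus above the mock in mannitol at the time at which it had come back to the mock in cold. The gene scaffold5.38 was higher in NaCl at 12 h, by a log2 fold change of 1.14 (standard error 0.21, adjusted p = 1.68e-05). The one lower call was that of scaffold293.19 in NaCl at 24 h, with 2.56, 1.74 and 2.71 CPM against 4.0, 7.71 and 5.25, a log2 fold change of -1.26 (standard error 0.27, adjusted p = 4.99e-05). Without replicate 2 of every group, the highest library of the mock and the lowest of NaCl, it was -0.87 and not called.

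The other 6 genes had no call in mannitol or NaCl, at any time. Among them scaffold624.15 had log2 fold changes of -0.02 in mannitol and 0.09 in NaCl at 12 h, with 95% intervals of -0.19 to 0.14 and -0.08 to 0.26. For scaffold162.3, counts in mannitol and NaCl at 6 h and 12 h were between 2 and 8. Its interval in mannitol at 12 h was -1.22 to 0.90, which does not leave out a fall of the size of the limit. A rise of that size lay outside the interval, which is imprecise at such counts. The gene scaffold572.19 was above the mock in mannitol and NaCl at 3, 12 and 24 h by 0.59 to 0.85 on the log2 scale, and at 6 h had 26.3, 27.6 and 32.4 CPM in mannitol and 25.9, 28.9 and 24.4 in NaCl, against 34.4, 31 and 36.1 in the mock and 143, 147 and 164 in cold.

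**Figure D4:**
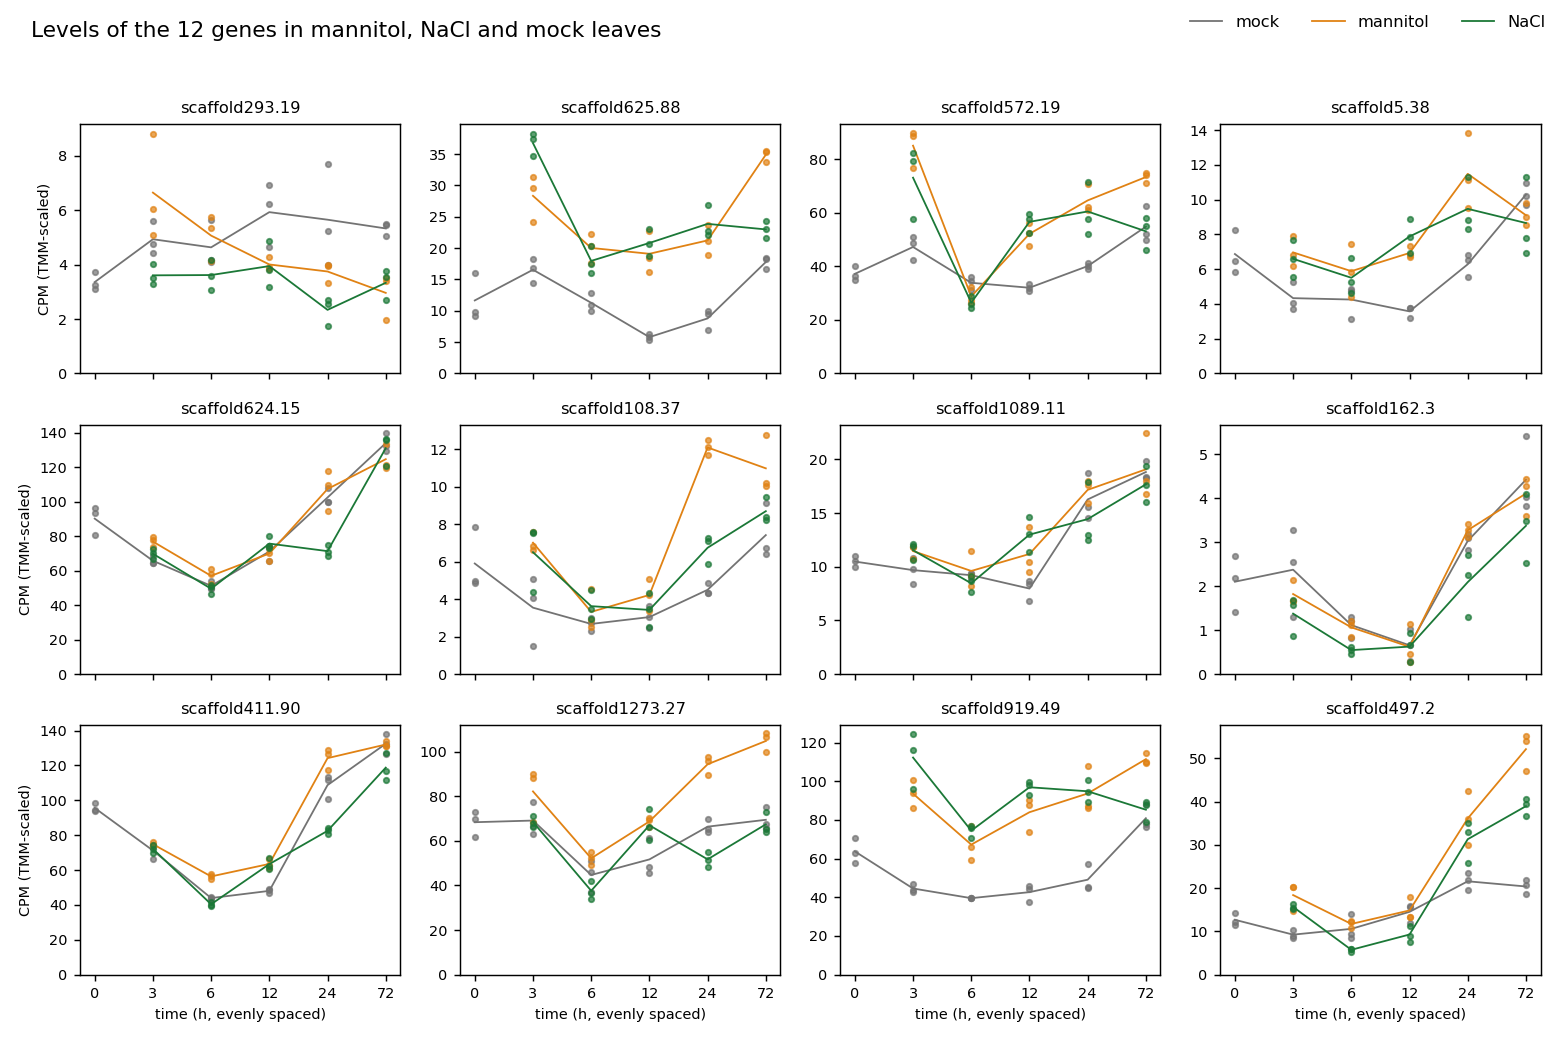
Levels of the 12 genes in mannitol (orange), NaCl (green) and mock (grey) leaves, as TMM-scaled CPM on linear axes from 0 that differ between genes, against hours of treatment at even spacing; points are libraries and lines join group means of 3. The means in mannitol and NaCl are above the mock from 3 h to 24 h in scaffold625.88, scaffold919.49, scaffold5.38 and scaffold108.37.

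Compared directly over the 5 time points, NaCl and mannitol gave a single call among these genes. It was scaffold497.2 at 6 h, which was lower in NaCl, with 6.01, 5.95 and 5.26 CPM against 12.1, 10.7 and 12.3 in mannitol and a log2 fold change of -1.02 (standard error 0.19, adjusted p = 1.21e-04). Of all genes tested, in the order of the 5 times, 1.04%, 0.608%, 0.296%, 4.84% and 0.99% were higher in NaCl and 0.5%, 0.684%, 0.296%, 4.66% and 2.79% lower. At 24 h none of the 12 was called. Their log2 fold changes then ran from -0.87 to 0.17 with a median of -0.43, against 0.05 over all genes, and 10 of the 12 were negative. The adjusted p-value alone was under 0.05 for 4 of them, with -0.87 for scaffold1273.27, -0.84 for scaffold108.37, -0.59 for scaffold624.15 and -0.59 for scaffold411.90, all lower in NaCl. The share of all genes that passed in this direction by that criterion was 15.9%.

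In heat the rule bounded the mean absolute difference, and the time points behind that mean differed between genes. The gene scaffold293.19 had the smallest mean, 0.145. The highest d in heat was that of scaffold625.88, with 1.26 at 12 h and 0.859 at 24 h with library totals. It was below the mock at 3, 6 and 72 h (-0.243, -0.144 and -0.372). At 12 h this gene held 14.7, 13.4 and 13.7 CPM in heat, above its low mock as in cold, mannitol and NaCl. In scaffold572.19 and scaffold919.49 the heat leaves were above the mock through the first day. For scaffold572.19 d was, in the order of the 5 times, 0.589, 0.98, 0.956, 0.972 and 0.01 with library totals. After TMM scaling it was below the mock at 72 h, with 44.8 ± 2.35 CPM (SD, n = 3) in heat and a log2 fold change of -0.29 (standard error 0.11). The gene scaffold162.3 was almost absent in heat at 3, 6 and 12 h. Its 3-h libraries held 1, 0 and 1 counts, the 6-h libraries 1, 2 and 0 and the 12-h libraries 1, 0 and 3, whereas the mock held 16, 17 and 7 at 3 h. On the log2(CPM + 1) scale d of this gene at 3, 6 and 12 h was -1.46, -0.839 and -0.436. The log2 fold changes of the edgeR fit, which does not add 1 to the CPM, were -4.03, -2.6 and -1.365 (standard errors 0.64, 0.66 and 0.70). At 72 h the log2 fold changes of the 12 genes in heat ran from -1.72 for scaffold108.37 to 0.18 for scaffold293.19, with a median of -0.93. At that time scaffold108.37 held 2.22 ± 0.467 CPM (SD, n = 3) in heat, 8.3, 7.03 and 6.84 in cold and 9.12, 6.4 and 6.73 in the mock.

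The 12 genes lay on 12 different scaffolds by their identifiers. The table held 22 genes whose number on the same scaffold is next to that of one of the 12. None of them was a member, and none met the condition of d of at least 1 in cold at 6, 12 and 24 h. Only 130 of the 35884 genes met it together with the conditions on the mock, so none among 22 carries little information. Some neighbours, such as scaffold293.18 and scaffold5.39, had a mean mock CPM of 0 and could not pass. The nearest to the condition on d were scaffold411.89, beside scaffold411.90, with d of 0.564, 1.06 and 1.2 at 6, 12 and 24 h, and scaffold1089.10, beside scaffold1089.11, with 1.65, 0.637 and 0.237.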

How the data were processed

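Leaves were profiled by strand-specific RNA-seq in 78 libraries. Per the labels and the methods, the authors trimmed reads with cutadapt 1.9.1 and the NGS QC Toolkit, checked them with FastQC 0.11.5, aligned them with HISAT2 to the CM334 genome and counted them per gene with featureCounts 1.5.2. The deposited values are counts without normalization for 35884 genes. Whether the counting used the strand is not given in the sources used here, so reads of overlapping or antisense genes could be left out or counted for the wrong gene. How reads of near-identical genes were counted was not examined.

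The rule was applied to CPM from library totals, and d in heat was read as the mean of the absolute differences. Read instead as the absolute value of the mean, chosen after the data had been seen, it gave 14 genes. The members and all lists were chosen with earlier results of these data known. Tests used edgeR 4.0.16 in R 4.3.3: filterByExpr kept 19588 genes, TMM factors were 0.835 to 1.24, and all libraries entered one quasi-likelihood fit with treatment and time as a single factor (52 residual degrees of freedom). Within each of 18 contrasts the Benjamini-Hochberg adjustment ran over all genes, and DEGs were called as given above. All 12 members passed the filter. Genes to be named were fixed by rule (the 10 members with the largest d in cold at 12 h, those with the largest changes among the calls, the most abundant, and those next to each limit), and with 12 members all are named; the neighbours on scaffolds were chosen after the data were seen.

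Replicates differed by more than sampling noise (chi-square per degree of freedom at least 1.89), and the common biological coefficient of variation was 11.4%. Alternatives were DESeq2 1.42.0, RLE factors, library totals, no filter, a replicate block, a fit per time point, the adjusted p-value alone, and each replicate left out. Counting error covers the sampling of reads only. Sequences of the genes, GO terms and marker genes were not analysed here.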

Additional observations from a re-analysis of the deposited data

Results flagged for a closer look

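The effect of mannitol on scaffold293.19 differed between 24 h and 3 h. The difference of the log2 fold changes against the mock, tested as a contrast in the edgeR fit that was chosen after the data had been seen, was -1.0 (standard error 0.35, adjusted p = 0.0351). The log2 fold change was 0.43 at 3 h and -0.57 at 24 h, neither of which was called. The libraries held 8.82, 6.03 and 5.1 CPM in mannitol at 3 h, where the highest was replicate 1, and 3.97, 3.95 and 3.32 at 24 h, against 4.77, 5.61 and 4.43 and 4.0, 7.71 and 5.25 in the mock. In NaCl the same difference was -0.81 (standard error 0.38, adjusted p = 0.108). None of the other 11 genes had an adjusted p under 0.05 in mannitol, and of all genes tested 8.27% passed with a higher and 8.58% with a lower effect at 24 h. In NaCl the difference between 24 h and 3 h had an adjusted p under 0.05 in scaffold624.15 (-0.61, standard error 0.12, adjusted p = 6.09e-05), scaffold411.90 (-0.42, standard error 0.09, adjusted p = 2.85e-04) and scaffold919.49 (-0.38, standard error 0.14, adjusted p = 0.0395), 3 of the 12 genes, beside 13.3% of all genes with a lower and 12.4% with a higher effect at 24 h. For scaffold624.15 the effect of NaCl was 0.09 at 3 h and -0.52 at 24 h, for scaffold411.90 0.02 and -0.40, and for scaffold919.49 1.33 and 0.95.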

How the results depend on the processing

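Of the 28 calls of a gene in a contrast, each recomputed under 9 other settings (252 values), 245 stayed called, 7 were lost and none changed direction. The lost calls were scaffold108.37 in cold at 3 h (0.996 with library totals, 0.51 without replicate 3), scaffold919.49 in mannitol at 3 h (0.96 without replicate 1), scaffold293.19 in NaCl at 24 h (-0.87 without replicate 2), scaffold497.2 in NaCl against mannitol at 6 h (-0.995 with library totals, -0.947 without replicate 3) and scaffold624.15 in cold against mannitol at 3 h (0.98 with library totals).

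With the adjusted p-value alone, the genes higher in mannitol from 3 h to 72 h, in order of time, were 6, 3, 7, 8 and 6, with 1 lower at 72 h, and in NaCl 6, 2, 7, 6 and 1 were higher, with 2, 2, 4 and 1 lower at 6, 12, 24 and 72 h; the report gives the shares of all genes. In NaCl against mannitol 1, 3, 1, 4 and 5 were then lower at the 5 times (3.93%, 6.13%, 0.98%, 15.9% and 10.1% of all genes). In cold at 3 h against mannitol 7 were higher (12.4%) and 3 lower (16.6%), and against NaCl 6 were higher (18.3%) and 3 lower (23.2%). With library totals, 3 genes in mannitol at 12 h and 2 at 72 h were higher, 2 in NaCl at 24 h and 1 at 72 h, and 0 were lower in NaCl against mannitol at 6 h. With no filter on low counts 2 were higher in mannitol at 12 h. Leaving out 1 replicate of every group in turn gave 1 to 2 higher genes in mannitol at 3 h, 0 to 1 at 6 h and 1 to 3 at 12 h, with 0 to 1 lower at 72 h. In NaCl it gave 0 to 1 lower at 3, 6 and 24 h, and 1 to 2 higher at 24 h and 0 to 1 at 72 h. In NaCl against mannitol 0 to 1 were lower at 3 h and at 6 h.

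The rule gave 17 genes with TMM-scaled CPM, of which 9 were among the 12, 12 with a pseudocount of 0.5 (11 shared), 15 with a limit of 0.75 at 72 h, and 13 to 14 without 1 replicate (9 to 11 shared). The replicate numbers do not pair the samples: the correlation of deviations of same-numbered samples ranged from -0.204 to 0.21, with 7 of 54 pairs above 0.1. With the replicate block 7 genes were higher in cold at 3 h, and no count changed. Counts under about 10, as in scaffold162.3 outside cold, limit the precision.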
